A study of Mus musculus with 4 samples.

Results

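The cardiac sarcomere genes described here are 10 genes taken by symbol from the deposited gene tables: Myh6, Myh7, Myl2, Myl3, Myl4, Myl7, Tnnt2, Tnni3, Actc1 and Nppa, out of 46983 genes in all. Of these 10 genes, 9 had a value above 0 in at least 1 library and 8 had a mean of at least 1 TPM (a share of the library's transcripts, scaled for transcript length, so that it can be compared between genes), the minimum for testing. The RNA came from larynx tissue of mouse embryos at E10.5 with 32 to 35 somites, as 2 pools of Shh-/- (mutant) larynxes and 2 pools of wild-type (WT) larynxes, each pool holding 3 larynxes. The mutant embryos carried the Shhtm1amc null allele, kept on a Swiss Webster background, in every cell, and whole dissected tissue was sequenced rather than sorted cells. The sample labels write the genotype of the mutant pools as Shh+/-, while the design text of the series writes Shh-/-, which is the name used here. The comparison asks what the loss of Shh, the secreted ligand of the Hedgehog (HH) pathway, changed in the developing larynx.

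Striated muscle contracts through the sarcomere, in which myosin of the thick filament pulls on actin of the thin filament. Each myosin heavy chain carries an essential and a regulatory light chain, and calcium binding to the troponin complex on the thin filament opens actin to the motor. The heart uses its own set of these proteins, with separate atrial and ventricular light chains, and several of them are also made for a time in embryonic skeletal muscle. The larynx forms from foregut epithelium and the mesenchyme around it, close to the outflow end of the heart.

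All 8 tested genes had higher values in both Shh-/- pools than in both WT pools, and 2 of them, the heavy chain genes Myh6 and Myh7, passed an adjusted p of 0.05 and were called higher (limma with Benjamini-Hochberg adjustment over all 16972 tested genes). Mean levels were 7.85 ± 0.359 TPM in Shh-/- against 1.62 ± 0.106 TPM in WT for Myh6 and 14.7 ± 2.99 TPM against 2.56 ± 0.330 TPM for Myh7 (SD, n = 2 pools each). Over all tested genes 0.560% were called higher and 0.165% lower, and 38.0% had both Shh-/- pools above both WT pools, the share against which 8 of 8 is read. Of the 8 genes, Myl3 reached the minimum for testing only through its level in the mutant pools. At an adjusted p of 0.10 the count was 6 of the 8 genes, against 3.95% of all tested genes called higher at that threshold. At an unadjusted p of 0.05 it was 7 of the 8, against 17.5%. Of all tested genes, 4202 had an unadjusted p under 0.05, and 2977 of these were higher in Shh-/-. For the 8 genes, log2 fold changes (Shh-/- minus WT on the log2(TPM + 1) scale) had a median of 1.90 and a range from 0.25 for Tnni3 to 2.13 for Myh7, beside a median of 0.08 over all tested genes. On this scale the changes of weakly expressed genes appear smaller than they are.

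**Figure D1:**
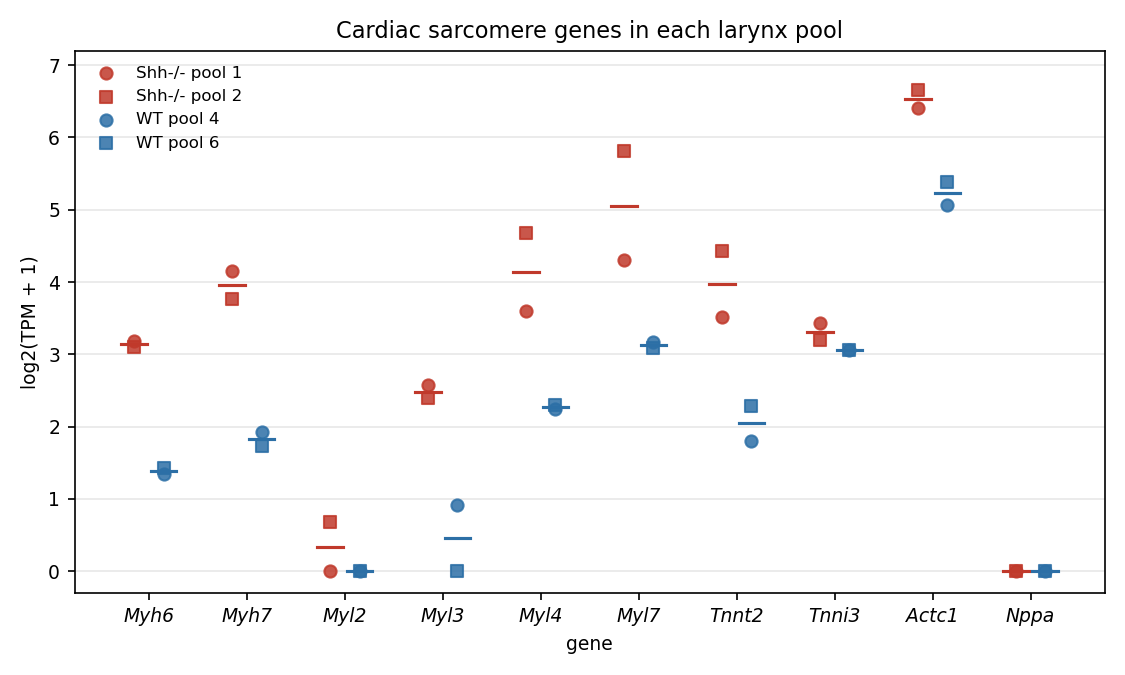
Level of each cardiac sarcomere gene as log2(TPM + 1) in the 2 Shh-/- pools (red) and the 2 WT pools (blue), with a short line at each group's mean. The red points lie above the blue ones for 8 genes, the pools of Shh-/- differ most for Myl7, Myl4 and Tnnt2, and Myl2 and Nppa lie at or near 0.

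The libraries separated as labeled at the HH target Ptch1, which encodes the Hedgehog receptor and was lower in the mutant, at 12.9 and 13.8 TPM, than in WT, at 57.8 and 55.1 TPM (log2 fold change -2.00, limma adjusted p = 0.0319). Shh transcripts, which the tables do not split by exon, measured 10.4 and 10.8 TPM against 23.7 and 42.1 TPM (log2 fold change -1.49, limma adjusted p = 0.0895). Depth, read from the ratio of coverage to FPKM in the tables, was 1.37 aligned gigabases in Shh-/- pool 1 and 2.84 to 3.13 in the other pools. The tables give 0 for each of the 37 mitochondrial genes in all 4 libraries, so a listed 0 need not mean that a transcript was missing. Foregut epithelial markers were expressed in all pools, where the summed level of 9 epithelial markers was 682 and 593 TPM in Shh-/- and 632 and 644 TPM in WT, although single markers such as Foxa2 differed.

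The motor of the thick filament was measured through 2 neighboring genes on chromosome 14 (mm10). Myh7 (ENSMUSG00000053093.15, chr14:54970688-54994634, minus strand), which encodes the slow beta heavy chain that dominates the embryonic ventricle and slow skeletal fibers, measured 16.8 TPM in Shh-/- pool 1, 12.6 TPM in pool 2, 2.79 TPM in WT pool 4 and 2.32 TPM in WT pool 6. Both Shh-/- pools were high and the groups did not overlap. Myh7 rose by a log2 fold change of 2.13 (standard error 0.21, 95% interval 1.59 to 2.67, limma adjusted p = 0.0422), and the group means differed 5.74-fold.

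Myh6 (ENSMUSG00000040752.15, chr14:54941981-54966927, minus strand) encodes the fast alpha heavy chain, which is typical of the atria in the embryo. Its values were 8.10 and 7.59 TPM in the mutant pools and 1.54 and 1.69 TPM in WT. The pools of each genotype lay close together and the groups did not overlap. Myh6 rose by 1.76 on the log2 scale (standard error 0.18, 95% interval 1.29 to 2.22, limma adjusted p = 0.0448), with group means 4.85-fold apart. Myh6 made up 32.5 and 37.7% of the summed heavy chain level in the mutant and 35.6 and 42.1% in WT, so the balance of the heavy chains overlapped between genotypes while their levels did not (exact two-sided permutation p = 0.667, where 2 pools against 2 can give no p below 0.33).

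Neither call rested on a wide margin. With any 1 of the 4 pools left out, the log2 fold change ran from 1.93 to 2.33 for Myh7 and from 1.72 to 1.80 for Myh6, while the limma adjusted p ranged from 0.0934 to 0.155 for Myh7 and from 0.110 to 0.169 for Myh6, so that both calls were lost each time. Without the filter on TPM the adjusted p was 0.148 for Myh6 and 0.146 for Myh7 in limma, and after a correction for GC content and transcript length that of Myh6 was 0.0639. The paired genes are similar in sequence: 13.7% of the 75-base windows in the annotated Myh6 transcripts occur in another gene, as do 13.6% of those of Myh7, and 947 windows are common to both. Reads from those windows could be counted for either gene, so the split between them is less certain than their sum.

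The regulatory light chains differed widely in level. Myl7 (ENSMUSG00000020469.8, chr11:5896637-5898782, minus strand), the atrial regulatory light chain that is also made throughout the early heart tube, measured 18.7 TPM in Shh-/- pool 1 and 55.1 TPM in pool 2, against 8.00 and 7.46 TPM in WT. Both Shh-/- pools exceeded both WT pools, but they lay 2.94-fold apart while the WT pools were nearly equal. The log2 fold change of 1.93 had a standard error of 0.50 (95% interval 0.65 to 3.21, limma adjusted p = 0.126), and it was 1.18 without Shh-/- pool 2 and 2.68 without pool 1.

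Myl2 (ENSMUSG00000013936.12, chr5:122100951-122113472, plus strand) encodes the ventricular and slow skeletal regulatory light chain. It measured 0.602 TPM in Shh-/- pool 2 and was listed at 0 in Shh-/- pool 1 and in both WT pools. Its mean was under the minimum for testing. The value in Shh-/- pool 2 rests on a depth of 0.937, less than 1 read per base, computed from the gene's FPKM and the library's aligned bases. No fold is given against groups listed at 0. In the pool where it was highest, Myl2 was 1.08% of the summed Myl2 and Myl7 level.

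The essential light chains were both higher in the Shh-/- pools without passing the threshold. Myl4 (ENSMUSG00000061086.12, chr11:104550663-104595753, plus strand), which is atrial and also made in fetal skeletal muscle, measured 11.1 and 24.7 TPM in Shh-/- against 3.76 and 3.91 TPM in WT. The groups did not overlap, and as for Myl7 the second Shh-/- pool was the high one. Its log2 fold change was 1.87 (standard error 0.38, 95% interval 0.90 to 2.84, limma adjusted p = 0.0962). Myl4 and Myl7 had a ratio of Myl4 to Myl7 that overlapped between the genotypes, at 0.594 and 0.449 in Shh-/- and 0.470 and 0.525 in WT.

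Myl3 (ENSMUSG00000059741.13, chr9:110741861-110769798, plus strand) encodes the essential light chain of ventricle and slow skeletal muscle. Its level was 4.95 and 4.26 TPM in the mutant pools, and 0.878 TPM and 0 in WT. The Shh-/- pools were close to each other and above both WT pools. Myl3 made up 30.8 and 14.7% of the summed Myl3 and Myl4 level in Shh-/- and 18.95 and 0% in WT, with overlap (exact two-sided permutation p = 0.667). The log2 fold change of 2.03 (standard error 0.36, 95% interval 1.11 to 2.95, limma adjusted p = 0.0818) depends on the constant added before taking logs, since 1 WT pool is listed at 0: it was 3.91 with 0.1 in place of 1. Depth, computed from FPKM and aligned bases as for Myl2, was shallow, at 3.26 and 6.64 reads per base in the Shh-/- pools and 1.25 in WT pool 4. On the opposite strand the gene shares 95 exonic bases with Pth1r, the parathyroid hormone receptor gene, which measured 47.9 and 42.0 TPM in Shh-/- and 31.7 and 28.4 TPM in WT. The strand setting used to assign reads is not given in the sources used here, so reads from the shared bases cannot be told apart.

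On the thin filament, Actc1 (ENSMUSG00000068614.7, chr2:114047282-114053548, minus strand) had the highest level of the 10 genes in every pool. It encodes alpha-cardiac actin, the actin of embryonic heart muscle that is also made in embryonic skeletal muscle. It measured 83.6 and 99.9 TPM in the mutant and 32.6 and 41.0 TPM in WT. The groups did not overlap, and the distance between the genotypes exceeded that between pools of 1 genotype. The log2 fold change was 1.3 (standard error 0.16, 95% interval 0.88 to 1.72, limma adjusted p = 0.0592), with group means 2.50-fold apart.

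Tnnt2 (ENSMUSG00000026414.13, chr1:135836354-135852260, plus strand), the cardiac troponin T that ties the troponin complex to tropomyosin, measured 10.4 and 20.6 TPM in Shh-/- and 2.47 and 3.90 TPM in WT. The groups did not overlap, with the second Shh-/- pool again the higher one. Its log2 fold change was 1.93 (standard error 0.37, 95% interval 0.98 to 2.88, limma adjusted p = 0.0895).

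Tnni3 (ENSMUSG00000035458.14, chr7:4518305-4524229, minus strand), the inhibitory troponin subunit of the mature heart, stood apart from the other tested genes by its small difference. It measured 9.76 and 8.19 TPM in the mutant pools and 7.35 and 7.33 TPM in WT. The Shh-/- pools were the higher ones, by 1.22-fold in the means. The log2 fold change of 0.25 had a standard error of 0.17 and a 95% interval of -0.17 to 0.68 (limma adjusted p = 0.379), an interval that covers 0. In WT the level of Tnni3 was above that of Tnnt2, at 2.98 and 1.88 times its TPM, whereas in the Shh-/- pools it was below, at 0.939 and 0.398 times. The groups did not overlap in this ratio (exact two-sided permutation p = 0.333, the smallest that 2 pools against 2 can give). The ratio was not among those planned, and it restates the unlike changes of the 2 genes. Tnni3 shares 86 exonic bases with Dnaaf3 on the same strand, a gene at 1.79 to 3.76 TPM.

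Nppa (ENSMUSG00000041616.9, chr4:148000722-148002079, plus strand) is no part of the sarcomere. It encodes atrial natriuretic peptide, a hormone of atrial and embryonic trabecular cardiomyocytes. The gene is listed at 0 in all 4 pools and was not tested. An antisense gene covers 532 of its exonic bases, and 48.8% of its 75-base windows occur in that gene, which was listed at 0 in 3 pools and at 0.265 TPM in WT pool 6.

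The summed level of the 10 genes was 164 and 234 TPM in the mutant and 59.4 and 67.6 TPM in WT. Leaving out Actc1, it was 79.8 and 134 TPM against 26.8 and 26.6 TPM, a ratio of means of 3.997. Actc1 made up 51.2 and 42.8% of the sum in Shh-/- and 54.9 and 60.6% in WT, and the share of Tnni3 was 5.97 and 3.51% in Shh-/- against 12.4 and 10.8% in WT. Neither share overlapped between the genotypes (exact two-sided permutation p = 0.333 each, the smallest that 2 pools against 2 can give). Both restate that Actc1 (2.50-fold) and Tnni3 (1.22-fold) differed less between the group means than the sum did (3.13-fold). Myl7 took 11.5 and 23.6% in the mutant pools and 13.5 and 11.04% in WT, with overlap. In bulk tissue, the number of cells of a type and the RNA per cell cannot be told apart. These sums therefore do not separate more cells making these transcripts from a higher output of each. Which cells of the dissected tissue made them was not tested.

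**Figure D2:**
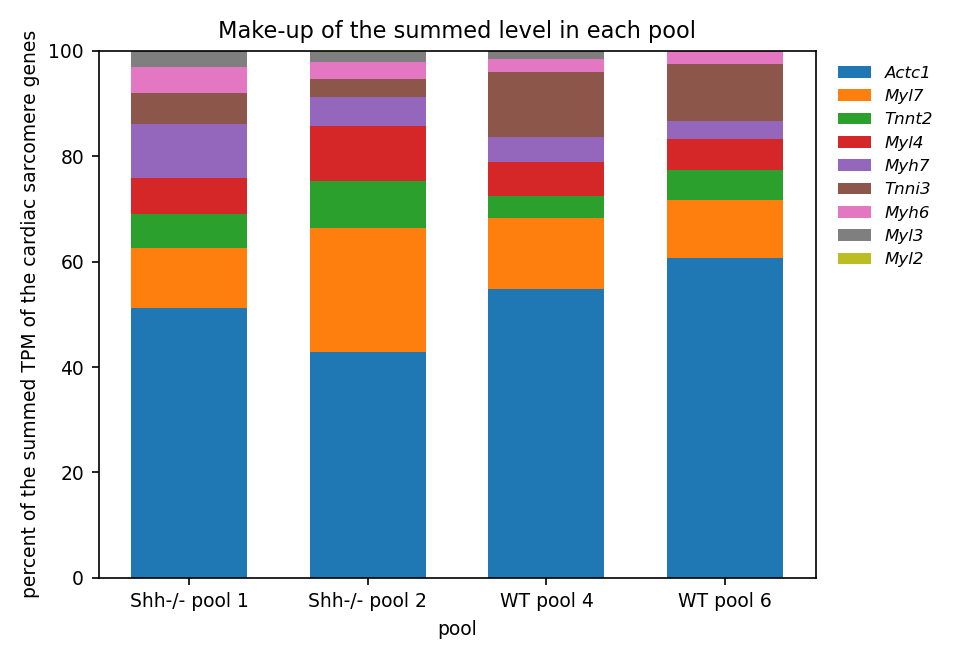
Share of each gene in the summed TPM of the 10 cardiac sarcomere genes (vertical axis, percent) in each of the 4 pools. Actc1 is the largest part in every pool, from 42.8% to 60.6%, and the Tnni3 part is smaller in the Shh-/- pools than in the WT pools.

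The Shh-/- pools differed most in 3 of the 8 tested cardiac sarcomere genes. Pool 2 exceeded pool 1 by 2.94-fold for Myl7, by 2.22-fold for Myl4 and by 1.98-fold for Tnnt2. Myh6, Myh7, Myl3 and Tnni3 were 0.748 to 0.937 times as high in pool 2 as in pool 1, and Actc1 was 1.20 times as high. Of all tested genes, 7.11% were at least 1.5-fold higher in Shh-/- pool 2 than in pool 1. Of these 3 genes, Tnnt2 was 1.58-fold higher in WT pool 6 than in WT pool 4, while Myl4 was at 1.04 and Myl7 at 0.933 times.

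Other genes with a higher value in Shh-/- pool 2, named after their values were seen, were the slow troponin I gene Tnni1 (2.36-fold), the myosin chaperone gene Unc45b (3.12-fold) and the transcription factor gene Tbx5 (3.86-fold). Members of the same lists also went the other way, among them Tnnc1 (0.803 times), Mef2c (0.480 times) and Irx4 (0.460 times), picked in the same way. These picks are not a count over those lists. Of the 7 tested epicardial and mesothelial markers, 6 were higher in Shh-/- pool 2 than in pool 1, beside 41.9% of all tested genes. Their values in pools 1 and 2, also picked after they were seen, ran from 3.54 and 15.7 TPM for Tbx18 to 25.3 and 13.6 TPM for Sema3d, the marker that was lower in pool 2. Foxf1, an HH-dependent mesenchymal transcription factor gene named after its values were seen, was at 0.848 TPM in Shh-/- pool 1 and 9.57 TPM in pool 2, against 72.3 and 64.6 TPM in WT. Pool 1 was also the less deeply sequenced. The part of these differences, and of depth, in the values of Myl7, Myl4 and Tnnt2 was not tested.

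The rest of the contractile apparatus was described by 27 further sarcomere and sarcomere-associated genes. Of these, 18 were tested, 0 passed an adjusted p of 0.05 in limma, 5 were higher and 1 lower at an unadjusted p of 0.05, and the median log2 fold change was 0.30. The most abundant of them, the tropomyosin gene Tpm1 (509 and 454 TPM in Shh-/-, 359 and 340 TPM in WT) and the intermediate filament gene Des (46.5 and 63.2 TPM against 55.4 and 45.6 TPM), are also made by other cells. Tpm1 had a log2 fold change of 0.46 (limma adjusted p = 0.103) and Des of 0.11 (limma adjusted p = 0.747).

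The other troponin genes of heart and slow muscle, Tnnc1 and Tnni1, named for that role after their values were seen, were higher in both Shh-/- pools. Both are among the 9 of 18 tested companion genes with both Shh-/- pools above both WT pools, beside 38.0% of all tested genes. Another 3, Smyd1, Ankrd1 and Smpx, also named after their values were seen, were lower in both Shh-/- pools. Smyd1 measured 4.29 and 5.02 TPM against 8.76 and 7.33 TPM (log2 fold change -0.68, limma adjusted p = 0.134). Tnnc1, the calcium-binding subunit, measured 8.00 and 6.42 TPM against 2.30 and 2.18 TPM (log2 fold change 1.33, standard error 0.19, limma adjusted p = 0.0678). Tnni1, the troponin I isoform that the embryonic heart uses in place of Tnni3, measured 32.3 and 76.2 TPM against 18.1 and 18.9 TPM (log2 fold change 1.38, standard error 0.40, limma adjusted p = 0.145). Tnni3 was 23.2 and 9.71% of the summed Tnni3 and Tnni1 level in Shh-/- and 28.9 and 27.9% in WT, so Tnni1 was the more abundant troponin I in every pool.

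Transcripts of several other defining sarcomere proteins were scarce. Ttn, the gene of the giant scaffold titin, was at 0.0850 and 0.110 TPM in the mutant and 0.0340 and 0.0320 TPM in WT. The Z-disc gene Actn2 ranged from 0.239 to 0.584 TPM, with overlap between the genotypes. The atrial gene Mybphl was listed at 0 in all pools. The myosin-binding protein gene Mybpc3 measured 1.14 and 2.61 TPM in Shh-/- and 0.362 and 0.820 TPM in WT (log2 fold change 0.82, limma adjusted p = 0.227). These genes were also named after their values were seen. Other genes of the same list, picked in the same way, were not scarce. Among them, Nexn measured 16.3 and 11.2 TPM in Shh-/- against 9.99 and 11.5 TPM in WT, and Fhod3 6.03 and 4.69 TPM against 2.50 and 2.04 TPM.

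**Figure D3:**
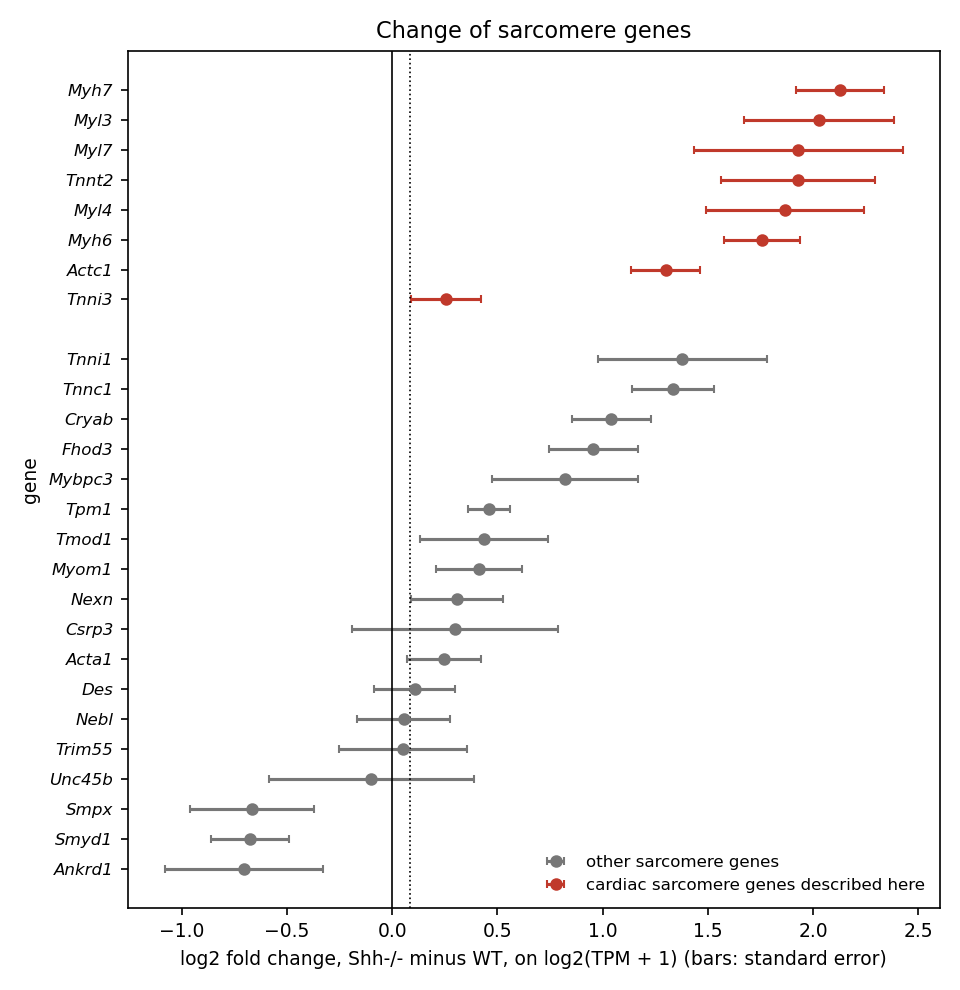
Log2 fold change (horizontal axis, Shh-/- minus WT on log2(TPM + 1)) of the 8 tested cardiac sarcomere genes (red) and of 18 tested companion genes (gray), with bars for the standard error and a dotted line at the median of all tested genes. The red points other than Tnni3 lie between 1.3 and 2.13, and the gray points run from -0.70 to 1.38.

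Genes for calcium handling and excitation showed little movement. Of 15 genes 11 were tested, 0 were called by limma, 1 was higher at an unadjusted p of 0.05 and the median log2 fold change was 0.25. The calcium pump gene Atp2a2 measured 116 and 110 TPM in Shh-/- and 107 and 82.9 TPM in WT (log2 fold change 0.25, limma adjusted p = 0.343), and the gap junction gene Gja5 measured 26.2 and 22.7 TPM against 23.7 and 25.1 TPM, with overlap. Sln, the atrial regulator of the calcium pump, was listed at 0 in all 4 pools.

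In the natriuretic peptide system, to which Nppa belongs, the peptide genes were at or near 0 and the genes acting on the peptides were not. Nppb was listed at 0 in 3 pools and at 0.203 TPM in Shh-/- pool 2. Of the 6 further genes 4 were tested, 0 were called by limma, and 3 were higher and 1 lower at an unadjusted p of 0.05. Npr2, the receptor for C-type natriuretic peptide, measured 39.5 and 29.1 TPM in Shh-/- and 14.2 and 9.49 TPM in WT (log2 fold change 1.47, limma adjusted p = 0.0784). Npr1, the receptor for the product of Nppa, measured 20.9 and 22.0 TPM against 11.7 and 9.82 TPM (log2 fold change 0.93, limma adjusted p = 0.0736). Corin, which encodes the protease for the Nppa precursor and like Nppb was named after its values were seen, was at 17.9 and 11.4 TPM against 1.49 and 2.47 TPM (log2 fold change 2.38, limma adjusted p = 0.0585). Its groups did not overlap. Npr3, also named after its values were seen, was the lower one, at 9.83 and 10.1 TPM against 13.1 and 16.9 TPM (log2 fold change -0.54, limma adjusted p = 0.164), again without overlap.

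Among 9 genes of striated muscle metabolism, Ckm, Ckmt2, Cox6a2 and Cox8b, which serve energy supply in mature muscle, were listed at 0 in every pool. Of the 4 tested genes 0 were called by limma and 2 were higher at an unadjusted p of 0.05, with a median of 0.39. The most abundant were the enolase gene Eno3 (155 and 151 TPM in Shh-/-, 107 and 130 TPM in WT) and the fatty acid-binding protein gene Fabp3 (12.4 and 15.02 TPM against 8.58 and 11.8 TPM).

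The transcription factors of the heart did not share the direction of the sarcomere genes. Of 16 tested factors 8 had a positive and 8 a negative log2 fold change, with a median of -0.01 and 0 called by limma. At an unadjusted p of 0.05, 5 factors were higher and 5 lower, whereas 2977 of the 4202 genes at that threshold in all were higher. The most abundant factors were Isl1, a factor of cardiac progenitors (68.3 and 57.3 TPM in Shh-/-, 93.1 and 116 TPM in WT), and Hey1, a Notch target (62.8 and 64.3 TPM against 52.3 and 46.5 TPM). Named after their values were seen, Nkx2-5 (5.97 and 4.73 TPM against 18.5 and 13.6 TPM), Hand1 (6.67 and 5.42 TPM against 18.1 and 15.8 TPM) and Tbx5 (1.22 and 4.71 TPM against 19.4 and 12.6 TPM) had lower values in both Shh-/- pools. Their limma adjusted p-values were 0.0697, 0.0595 and 0.106. Hand2 (82.4 and 55.2 TPM against 40.8 and 35.4 TPM) and Hey2 (16.5 and 16.5 TPM against 8.31 and 9.52 TPM), picked in the same way, had higher values in both Shh-/- pools. Their limma adjusted p-values were 0.131 and 0.0849. In all, 7 factors were higher in both Shh-/- pools, beside 38.0% of all tested genes, and 6 were lower in both. Irx4, a ventricular factor, was at 3.96 and 1.82 TPM against 0.163 and 0.0960 TPM, and it reached the minimum for testing only through the mutant pools.

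Lists of markers of other cell types differed in direction, with medians above that of all genes for muscle, endothelial, epicardial and neuron genes and below it for erythroid, foregut epithelial and HH target genes. Their part in the values above was not tested. Over all tested genes, 0.560% were called higher and 0.165% lower. At an unadjusted p of 0.05, 17.5% were higher, and 38.0% were higher in both mutant pools. Of 20 skeletal muscle genes 8 were tested and 0 called by limma (2 higher at an unadjusted p of 0.05), with a median of 0.39, a summed level of 46.6 to 54.2 TPM in the mutant against 34.9 to 38.8 TPM in WT, Tnnt1 and Mylpf as the most abundant, and Myf6, Chrnd and Tnnc2 at or under 0.143 TPM in every pool. Those 2, named after their values were seen, were Actn3 (8.12 and 6.555 TPM against 2.20 and 2.45 TPM, limma adjusted p = 0.0682) and Myf5. Myf5 measured 3.23 and 2.72 TPM against 0.632 and 1.07 TPM (limma adjusted p = 0.103) and reached the minimum for testing only through the mutant pools. Smooth muscle genes had a median of 0.58 over 11 genes, summed to 647 to 685 TPM against 406 to 410 TPM, and had 1 gene called, Tagln (log2 fold change 0.88, limma adjusted p = 0.0493). At an unadjusted p of 0.05, 6 of them were higher and 1 lower. Endothelial and endocardial genes, all 9 higher in both mutant pools and at an unadjusted p of 0.05, had a median of 0.80, summed to 391 to 464 TPM against 234 to 257 TPM, and had 1 gene called, Tie1 (log2 fold change 1.17, limma adjusted p = 0.0470). Neuron genes had a median of 1.93 over 10 genes and summed to 819 to 899 TPM against 151 to 223 TPM, with 5 called higher, led by Tubb3, Nefl, Stmn2 and Elavl3. At an unadjusted p of 0.05, 9 were higher, of which Snap25 reached the minimum for testing only through the mutant pools. Epicardial markers, most abundantly Tcf21 and Sema3d, summed to 90.4 to 143 TPM against 134 to 144 TPM, with a median of 0.46 and 0 of 7 tested genes called by limma (2 higher and 1 lower at an unadjusted p of 0.05). Of the 2 higher ones, Upk1b reached the minimum for testing only through the mutant pools. Erythroid genes, led by Hbb-y and Hbb-bh1, had a median of -0.33 with 0 of 10 called by limma and 0 at an unadjusted p of 0.05, and foregut epithelial genes, led by Cldn6 and Krt18, a median of 0.00 with 0 of 9 called (1 higher and 3 lower at an unadjusted p of 0.05). The epithelial identity genes Foxa2 (5.33 and 9.12 TPM in the mutant, 29.2 and 39.8 TPM in WT) and Nkx2-1 (6.16 and 3.61 TPM against 15.9 and 17.9 TPM), named after their values were seen, were lower in both mutant pools (limma adjusted p = 0.0602 and 0.0714). HH targets and foregut mesenchymal genes had a median of -2.30 over 8 genes, with 3 called lower, namely Ptch1, Hhip and Foxf2. Hhip and Foxf2 reached the minimum for testing only through the WT pools. At an unadjusted p of 0.05, 1 gene of this list was higher and 7 lower.

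**Figure D4:**
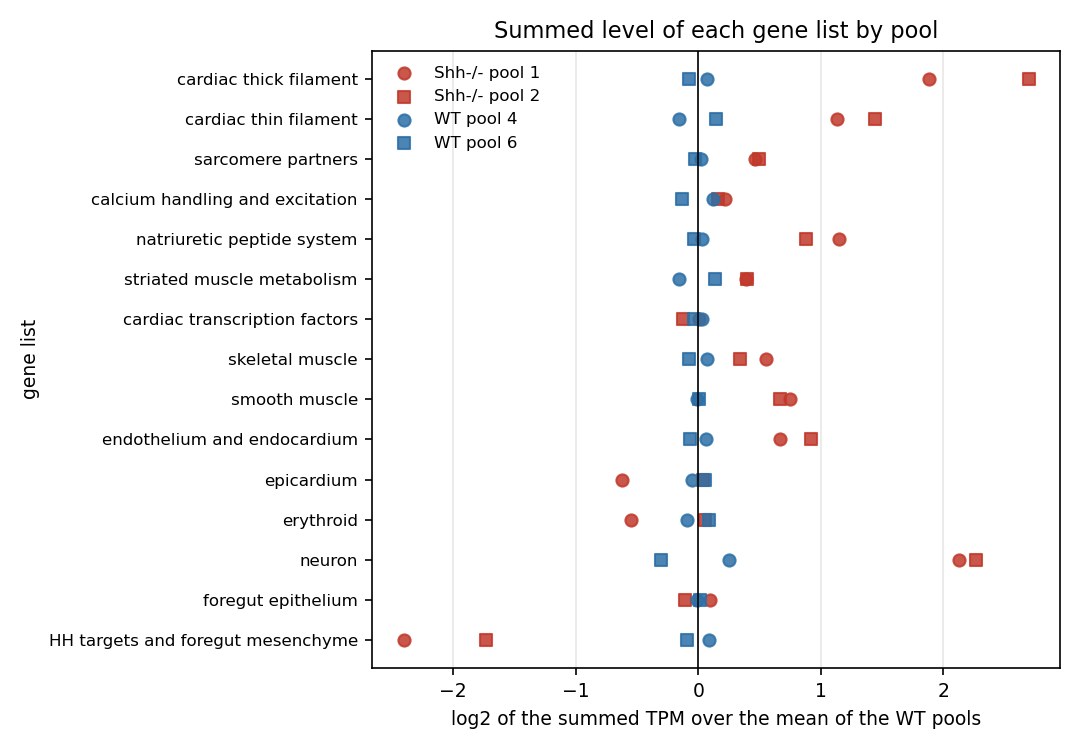
Summed TPM of each gene list in each pool, as log2 of its ratio to the mean of the WT pools (horizontal axis), for the Shh-/- pools (red) and the WT pools (blue). The cardiac thick filament genes and the neuron genes lie farthest to the right in the Shh-/- pools, the cardiac transcription factors lie near 0, and the HH targets lie to the left.

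Genes outside the lists whose pattern over the 4 pools was most like the mean pattern of the 8 tested genes were named by the smallest distance between values of log2(TPM + 1) centered on each gene's mean. They included Atp6v1c2 (distance 0.162), Prph (0.164), C1ql4 (0.166) and Aplnr (0.177). Atp6v1c2 measured 2.98 and 3.59 TPM in Shh-/- against 0.365 and 0.224 TPM in WT, and C1ql4 2.14 and 2.83 TPM against 0.189 TPM and 0. Both reached the minimum for testing only through the mutant pools, so their likeness to a pattern high in the mutant was partly set by that filter. Prph, a neuronal intermediate filament gene, measured 15.4 and 20.6 TPM in Shh-/- against 4.58 and 4.196 TPM in WT. Aplnr, the apelin receptor gene, measured 39.6 and 43.5 TPM against 13.2 and 12.0 TPM. Of the sarcomere genes themselves, Myh6 lay nearest to the mean pattern (0.341) and Tnni3 farthest (1.46).

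The stretch of DNA before each start site was read from RefSeq's promoter table for GRCm38.p6, the assembly of mm10, in which all 10 genes had an entry, and searched on both strands. The CArG box, the site of serum response factor, occurred in the 250 bases before the start of Actc1, Myl7 and Myl3, which is 3 of 10 genes, beside 1.5% of 32851 windows of that length. The GATA site (GATAA) occurred in 4 of 10 against 22.6% of windows, and the site of NKX2-5 (TNAAGTG) in 2 of 10 against 10.1%. The TEAD site (CATTCC) occurred in 5 of 10 against 12.6%, the E-box (CANNTG) in 8 of 10 against 66.2% and the TATA box (TATAAA) in 2 of 10 against 12.4%. No match to the MEF2 site was found in the 10 windows, against 2.9% of all windows. The RefSeq start lies 1701 bases from the gene's edge in the tables for Tnni3 and 7762 bases for Myl2, and the bases after the Myl2 start match no annotated Myl2 transcript. Each motif was counted on its own, whether or not it overlapped another. These counts were not tested, and a match is a stretch of letters rather than a bound site.

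The windows of the 3 genes with a CArG box are shown with that of Nppa, the gene listed at 0, each from 250 bases before the start up to the start, 5′ to 3′ on the strand of the gene. Capitals mark matches to the CArG box, the GATA site, the NKX2-5 site and the TATA box. The Actc1 window is chr2:114052876-114053125 on the minus strand, and the start it precedes lies 673 bases inside the gene's edge in the deposited tables. The Myl7 window is chr11:5898783-5899032 on the minus strand, and the Nppa window is chr4:148000472-148000721 on the plus strand. The Myl3 window (chr9:110763428-110763677, plus strand) precedes a start 21817 bases inside the gene as the tables draw it.
Actc1: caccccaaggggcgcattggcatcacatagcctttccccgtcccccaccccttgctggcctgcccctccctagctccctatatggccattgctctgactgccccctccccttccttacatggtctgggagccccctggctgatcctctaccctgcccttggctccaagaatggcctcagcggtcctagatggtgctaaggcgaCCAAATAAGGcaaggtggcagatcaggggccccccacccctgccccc
Myl7: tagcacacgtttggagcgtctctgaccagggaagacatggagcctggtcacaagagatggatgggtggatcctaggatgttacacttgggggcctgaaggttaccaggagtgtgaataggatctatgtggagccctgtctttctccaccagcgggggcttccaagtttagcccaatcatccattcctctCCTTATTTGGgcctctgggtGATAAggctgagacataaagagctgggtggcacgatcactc
Myl3: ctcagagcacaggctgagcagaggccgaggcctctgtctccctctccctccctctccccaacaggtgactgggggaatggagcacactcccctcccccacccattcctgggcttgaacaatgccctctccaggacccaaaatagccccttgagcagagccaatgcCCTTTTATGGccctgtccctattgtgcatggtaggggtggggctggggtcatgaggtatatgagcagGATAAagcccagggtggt
Nppa: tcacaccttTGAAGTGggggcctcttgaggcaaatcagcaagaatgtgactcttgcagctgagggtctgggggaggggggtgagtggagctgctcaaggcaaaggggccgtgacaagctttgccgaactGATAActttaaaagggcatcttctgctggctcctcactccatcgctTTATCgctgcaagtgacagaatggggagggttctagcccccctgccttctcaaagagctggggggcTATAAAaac
The CArG box begins at -47 from the start in Actc1, at -61 in Myl7 and at -85 in Myl3. In Myl7 and in Myl3 a GATA site lies between the CArG box and the start, at -41 and -18. The Nppa window holds 2 GATA sites, 1 NKX2-5 site and a TATA box. Among the genes whose windows hold a CArG box the log2 fold changes were 1.3 for Actc1, 1.93 for Myl7 and 2.03 for Myl3, within the range of the genes whose windows do not.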

How the data were processed

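RNA from 4 pools of 3 larynxes (2 Shh-/- and 2 WT) was sequenced single-end from directional poly(A) libraries. The authors aligned reads to mm10 with HISAT2 2.1.0 and assembled them into genes with StringTie 1.3.6. The deposited tables hold, per gene, the mean read coverage, which the authors left unnormalized, the FPKM, which the authors scaled to aligned bases, and the TPM, which the authors scaled so that each library sums to 1000000. Read counts were not used, so no counting intervals are given and the precision is the spread between 2 pools. Nothing in the labels says that the pools came from separate litters, so p-values measure only the spread between these pools, which may be technical.

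TPM was summed per gene ID. Aligned bases were taken from the modal ratio of coverage to FPKM. The groups were compared with limma 3.58.1 in R 4.3.3 (eBayes, trend on) after a log2(TPM + 1) transform. Testing covered the 16972 genes whose mean TPM reached 1, and Benjamini-Hochberg adjustment ran over all of them with a threshold of 0.05. The code was tested on simulated data. Transcripts and overlaps were taken from GENCODE M21 and promoters from RefSeq. A planned comparison of protein sequences was not made, and 75-base windows shared between transcripts were counted in its place. Of the companion lists, genes called by limma are named up to 4 with the largest change, otherwise the 2 with the highest mean TPM, and the 5 genes with the most similar pattern, of which 1 is not reported here. Other genes are marked in the text or are those listed at or near 0. Mymk, on the skeletal muscle list, was not matched by symbol. The genes, the lists and the tests were chosen with earlier results of these data known. The ratios of Myl4 to Myl7, Tnni3 to Tnnt2 and Tnni3 to Tnni1 were added to the planned ones. Alternatives were a pseudocount of 0.1, no filter, a mean TPM of at least 5, FPKM, quantile normalization, median centering, TPM without haemoglobin genes, eBayes without trend or with robust variance, an adjusted p of 0.10, a correction for GC content and length (16887 genes) and each pool left out in turn.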

Additional observations from a re-analysis of the deposited data

How the results depend on the processing

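The 8 tested genes kept a positive log2 fold change under every alternative run, with a median from 1.40 to 2.14 over the alternatives. The 2 calls among them became 0 without the filter on TPM (where 0 genes of 28524 were called in limma and 5011 had an unadjusted p under 0.05), 1 with a mean TPM of at least 5 (Myh6 and Myl3 were then not tested), 1 after correcting for GC content and length, and 6 at an adjusted p of 0.10. With each pool left out in turn, the count was 0 in each limma fit, with 6 to 7 of the 8 genes at an unadjusted p under 0.05. Without the filter, the adjusted p was 0.148 for Myh6 and 0.146 for Myh7, and more genes were tested. With the correction, Myh6 was at 1.37 on the log2 scale, with adjusted p = 0.0639. The cause was not tested. Across the table, 123 genes were called, 69 with a pseudocount of 0.1, 0 without the filter, 858 at an adjusted p of 0.10 and 0 to 16 with a pool left out (2070 to 3761 at an unadjusted p under 0.05), where 16 is the count without WT pool 6 and the other 3 fits gave 0. In the companion lists, 10 genes were called, 4 with a pseudocount of 0.1, 0 without the filter, 4 without the trend, 42 at an adjusted p of 0.10 and 0 with any pool left out. The cardiac transcription factors had 0 called, but 1 with quantile normalization, and 2 with median centering or with the correction. Centering moved the median of all genes from 0.08 to -0.05. Leaving out a pool leaves 1 pool in a group, which is assumed to vary like the other group. No paired analysis was possible because the WT and Shh-/- pools share no replicate number.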
